A study of Mus musculus with 12 samples.

Results

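The immunity-related GTPases (IRG) and the guanylate-binding proteins (GBP) are interferon-inducible GTPases. In all, 10 members were followed here, namely Iigp1, Gm12250, Irgm1, Irgm2, Igtp, Gbp1, Gbp2, Gbp3, Gbp4 and Gbp7. These 10 gene symbols were given with the series and were looked up among the 16389 genes of the deposited table, where 10 of 10 were found. They were probably chosen by their values in the FT 1 week library, which had been seen, so comparisons with that library are descriptions, with no p-value for a member.

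Aldh1l1-EGFP mice, in which the astrocytic Aldh1l1 promoter drives eGFP, were kept on a Swiss Webster background. Adult males received a lateral hemisection (HS) or a full transection (FT) of the thoracic spinal cord, or were non-injured (NI). eGFP+ cells of the tissue around the lesion, or of the same level in NI mice, were sorted and their RNA was sequenced. The 12 libraries fell into 5 groups. NI, HS 1 week and FT 2 weeks had 3 libraries each, HS 2 weeks had 2, and FT 1 week had 1. All groups carried the transgene, and the labels give no other allele or agent. The study's methods give more animals than libraries and call the libraries biological replicates, but the labels do not tie libraries to animals, so p-values measure only the spread between these libraries. The study's methods speak of replicates at every time point. Here FT 1 week was 1 library, with no replicate, and any other library of that group was not analysed here. In sorted bulk RNA, fewer cells of a type and less RNA per cell cannot be told apart.

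IRG and GBP proteins protect cells against parasites and bacteria that live inside vacuoles. Interferons induce them through STAT and IRF transcription factors, interferon-gamma most strongly, and the proteins then gather on the vacuole membrane and help to break it. Effector IRG proteins such as Iigp1 and the product of Gm12250 (Irgb10) coat the vacuole, whereas the regulators Irgm1, Irgm2 and Igtp (also Irgm3) guard the cell's own membranes. In the central nervous system, astrocytes and microglia are both known to express them under interferon.

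The libraries held 8270643 to 15562378 reads, and FT 1 week was the shallowest. The astrocyte label was checked against 16 astrocyte markers, all present, whose summed normalized count ranged from 2583 to 14310. Markers of other cells were also present. Per kilobase of exon, the median normalized count was 5.94 to 104 over the astrocyte markers, 356 to 724 over 12 oligodendrocyte markers and 14.4 to 243 over 17 microglia and macrophage markers. The oligodendrocyte median was above the astrocyte median in each of the 12 libraries. In FT 1 week the astrocyte median was 9.64 and the microglia median 131. NI replicate 3 (8.36 and 134), HS 1 week replicate 3 (5.94 and 243) and HS 2 weeks replicate 1 (9.07 and 180) had lower astrocyte and higher microglia medians. The label of astrocytes thus does not describe the RNA of these libraries fully, and the values below are those of eGFP+ sorted cells. FT 1 week held the highest value of 7.98% of the tested genes, beside 4.35% to 15.1% in the other libraries. It alone held the lowest value of 11.5% of the genes, beside 3.28% to 13.3%.

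In GRCm38, most members lie in clusters, and positions are given for 9 of them. Igtp (chr11:58199556-58207591), Irgm2 (chr11:58199618-58222782) and Gm12250 (chr11:58187739-58189012) were neighbours, and Irgm1 (chr11:48861968-48871683) lay elsewhere on the same chromosome. Gbp7 (chr3:142530342-142550149), Gbp3 (chr3:142560026-142573209), Gbp1 (chr3:142594847-142619179, current symbol Gbp2b) and Gbp2 (chr3:142620602-142638008) formed 1 row, whereas Gbp4 (chr5:105115767-105139586) lay with other GBP genes. Igtp and Irgm2 shared 162 exon bases, and 11.8% of the 50-base stretches of Igtp also occurred in another gene. For Gbp7 this share was 12.7%, for Gbp4 7.70%, for Irgm2 7.77%, and for the other members it was at most 3.75%. How the counting treated reads in such stretches is not given in the sources used here.

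RefSeq promoter windows (GRCm38.p6) were used for 8 of the 10 members, and those of Iigp1 and Gbp4 were not analysed here. The interferon-stimulated response element (ISRE) binds complexes that hold IRF proteins, and the gamma-activated site (GAS) is the element through which interferon-gamma acts most directly. The core of the ISRE, spelled GAAANNGAAA, was searched on both strands in the 250 bases before the start site. It was found in 8 of 8 members, against 936 of 27025 genes (3.46%). The GAS, spelled TTCNNNGAA, was found in 4 of 8 members (Igtp, Irgm2, Gm12250 and Gbp7), against 8.13% of genes. No GAS match overlapped an ISRE core match. The stretches with the ISRE cores are shown because they are the feature shared by every member with a window, and capitals mark the core, which reads as its reverse complement where it lies on the other strand.
Igtp, chr11:58199507-58199546, plus strand: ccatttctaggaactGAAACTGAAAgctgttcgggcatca
Irgm2, chr11:58214898-58214937, plus strand: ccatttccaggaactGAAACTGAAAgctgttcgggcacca
Irgm1, chr11:48871421-48871465, minus strand: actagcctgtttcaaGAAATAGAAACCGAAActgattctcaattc
Gm12250, chr11:58183737-58183821, plus strand: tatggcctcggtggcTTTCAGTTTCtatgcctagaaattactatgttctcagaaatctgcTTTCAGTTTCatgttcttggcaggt
Gbp1, chr3:142594695-142594734, plus strand: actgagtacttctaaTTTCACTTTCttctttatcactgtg
Gbp2, chr3:142620589-142620628, plus strand: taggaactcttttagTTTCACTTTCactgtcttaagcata
Gbp3, chr3:142559984-142560029, plus strand: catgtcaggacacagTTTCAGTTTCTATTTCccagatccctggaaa
Gbp7, chr3:142530268-142530307, plus strand: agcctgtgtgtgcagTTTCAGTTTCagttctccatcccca

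The Igtp and Irgm2 stretches differed at 2 of 40 bases. Irgm1 and Gbp3 each held 2 overlapping cores, and Gm12250 held 2 separate ones. The Gm12250 stretch lies before the RefSeq start site, which is upstream of the annotated model whose position is given above. The stretches of Irgm1 and Irgm2 lie inside the spans given above, and those of Gbp2 and Gbp3 reach into theirs. The start sites are from RefSeq and the spans from GENCODE. A match describes letters in this window and does not show that a factor was bound. Of the other IRG and GBP genes, 6 had a window, and 3 of these (Tgtp1, Tgtp2 and Gbp5) held an ISRE core and a GAS.

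**Figure D1:**
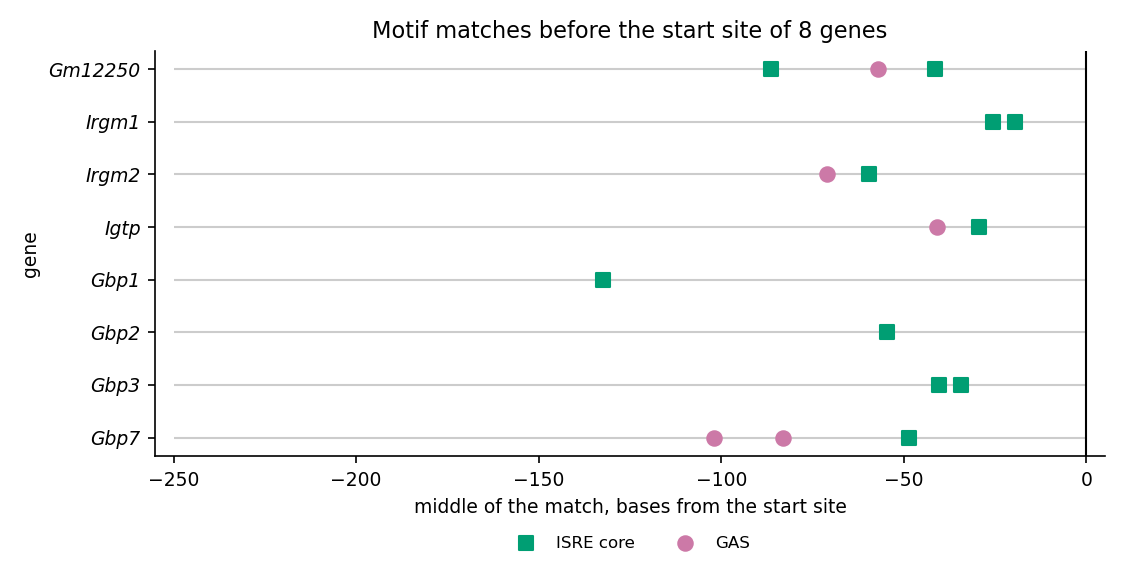
Matches to the ISRE core (squares) and the GAS (circles) before the start site of 8 members. The x axis gives the middle of each match in bases from the RefSeq start site, and each line is the promoter of 1 gene. The matches lie within 137 bases of the start site, and all 8 genes have an ISRE core.

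The members were expressed at low to moderate levels in 11 libraries and were all highest in the FT 1 week library, 10 of 10 beside 7.98% of the tested genes. Their summed normalized count was 88.22 to 190.9 in the other 11 libraries and 2635 in FT 1 week, which was 13.8 times the highest of the others. A normalized count is a gene's read count divided by 1 factor per library. Behind the FT 1 week values stood 444 reads (Gbp4) to 4284 reads (Iigp1), whereas the lowest count elsewhere was 4 reads, for Gbp1 and for Gbp4 in HS 1 week replicate 2.

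**Figure D2:**
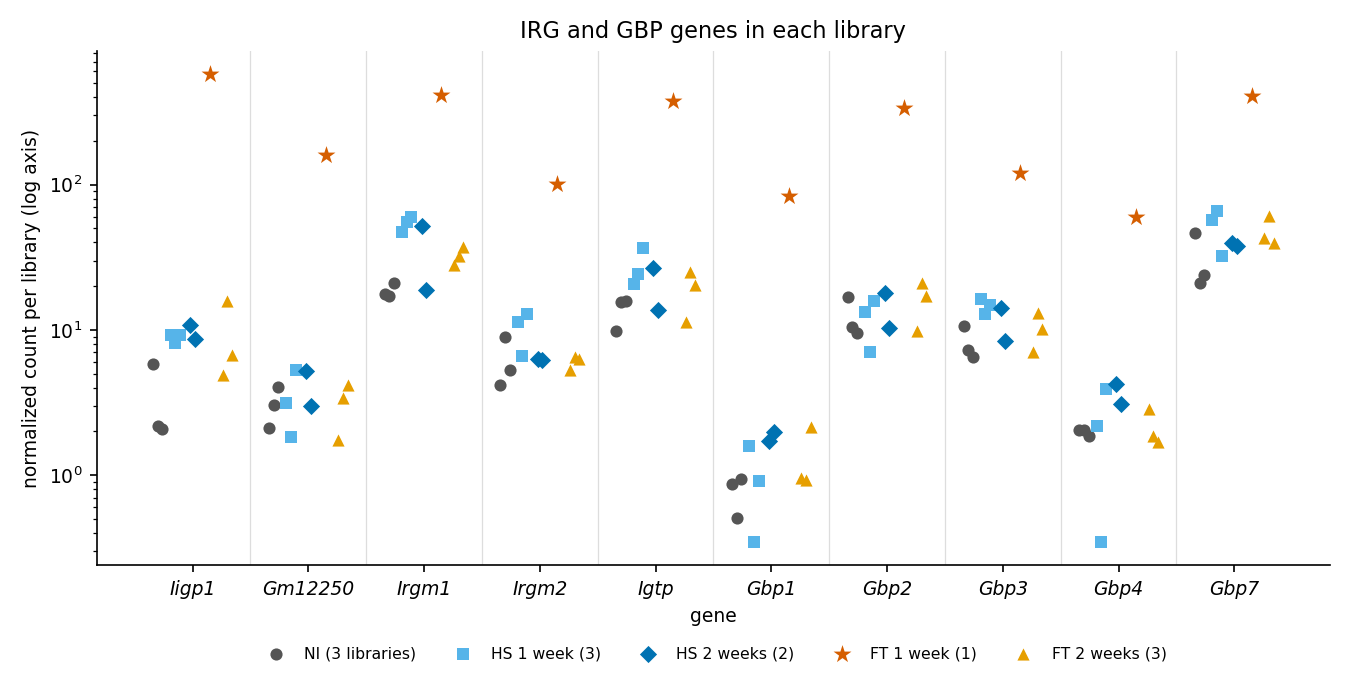
Normalized count (log axis) of each member in each of the 12 libraries, with 1 point per library and groups set apart by colour and shape. The FT 1 week library (star) lies above every other library for all 10 genes, by 6.19 times for Gbp7 and up to 39 times for Gbp1.

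Iigp1 encodes an effector that is loaded onto the vacuole membrane. Its normalized count was 5.82, 2.17 and 2.09 in NI, 9.21, 8.07 and 9.24 in HS 1 week, 10.8 and 8.64 in HS 2 weeks, 575 in the FT 1 week library, and 4.89, 15.7 and 6.67 in FT 2 weeks. FT 1 week was 36.6 times the highest of the other libraries. All libraries of HS 1 week and HS 2 weeks lay above all of NI, whereas FT 2 weeks overlapped NI.

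Gm12250 (Irgb10), another effector, is known to act with GBP proteins on bacterial membranes. It stood at 2.12, 3.06 and 4.03 in NI, 3.15, 1.82 and 5.32 in HS 1 week, 5.19 and 3.0 in HS 2 weeks, 161 in the FT 1 week library, and 1.75, 3.38 and 4.15 in FT 2 weeks. FT 1 week was 30.3 times the highest of the others, and the other groups overlapped NI.

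Irgm1 encodes a regulator that keeps effector IRG proteins off the cell's own membranes. Its normalized count was 17.8, 17.2 and 20.9 in NI, 46.9, 55.6 and 59.6 in HS 1 week, 51.7 and 18.7 in HS 2 weeks, 416 in the FT 1 week library, and 27.8, 32.3 and 37.1 in FT 2 weeks. HS 1 week and FT 2 weeks lay wholly above NI. In HS 2 weeks, replicate 1 was at the HS 1 week level and replicate 2 within the range of NI.

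Irgm2 is a regulator of the same kind and stood at 4.17, 8.94 and 5.33 in NI, 11.4, 6.59 and 12.9 in HS 1 week, 6.26 and 6.23 in HS 2 weeks, 101 in the FT 1 week library, and 5.33, 6.53 and 6.30 in FT 2 weeks. Igtp, also a regulator, stood at 9.82, 15.6 and 15.8 in NI, 20.6, 24.3 and 36.5 in HS 1 week, 26.7 and 13.7 in HS 2 weeks, 375 in the FT 1 week library, and 11.4, 25.2 and 20.3 in FT 2 weeks. FT 1 week was 7.84 times the highest other library for Irgm2 and 10.3 times for Igtp. HS 1 week lay wholly above NI for Igtp and overlapped it for Irgm2.

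The GBP proteins are larger GTPases that assemble on vacuoles and bacteria and promote inflammasome signalling. Gbp2 stood at 16.7, 10.4 and 9.5 in NI, 13.2, 7.03 and 15.7 in HS 1 week, 17.9 and 10.3 in HS 2 weeks, 338 in the FT 1 week library, and 9.79, 20.97 and 16.98 in FT 2 weeks. Gbp7 stood at 46.2, 21.1 and 23.7 in NI, 57.2, 65.4 and 32.1 in HS 1 week, 39.7 and 37.9 in HS 2 weeks, 405 in the FT 1 week library, and 42.9, 61.2 and 39.5 in FT 2 weeks. For both genes every replicated injury group overlapped NI, and FT 1 week was 16.1 times (Gbp2) and 6.19 times (Gbp7) the highest of the others.

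Gbp3 was at 10.7, 7.21 and 6.55 in NI, 16.4, 12.8 and 14.8 in HS 1 week, 14.2 and 8.35 in HS 2 weeks, 121 in the FT 1 week library, and 7.08, 13.2 and 10.2 in FT 2 weeks. Only its HS 1 week group, among the replicated groups, lay wholly above NI. FT 1 week was 7.39 times the highest of the others.

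Gbp1 and Gbp4 had few reads outside FT 1 week. Gbp1 was at 0.864, 0.511 and 0.936 in NI, 1.58, 0.347 and 0.918 in HS 1 week, 1.71 and 1.98 in HS 2 weeks, 83.9 in the FT 1 week library, and 0.95, 0.932 and 2.15 in FT 2 weeks. Gbp4 was at 2.04, 2.04 and 1.87 in NI, 2.18, 0.347 and 3.92 in HS 1 week, 4.27 and 3.08 in HS 2 weeks, 59.6 in the FT 1 week library, and 2.85, 1.86 and 1.71 in FT 2 weeks. FT 1 week was 39 times the highest of the others for Gbp1 and 14 times for Gbp4. HS 2 weeks lay wholly above NI for both.

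After division by exon length, Igtp had the highest level per kilobase of the 10 members in every group mean, at 6.80 ± 1.68 (SD, n = 3) in NI and 185 in FT 1 week. Gbp4 had the lowest level per kilobase in every group mean, at 0.265 ± 0.0132 (SD, n = 3) in NI and 7.96 in FT 1 week. In NI Gbp1 was close to it, at 0.273 ± 0.0806 (SD, n = 3). These ranks depend on the exon lengths, which were 2022 bases for Igtp, 2823 for Gbp1 and 7494 for Gbp4. Before the division, the NI mean of Gbp4 (1.99) was above that of Gbp1 (0.770), and that of Igtp (13.7) was below that of Gbp7 (30.3). The make-up of the summed level per kilobase also differed. Iigp1 gave 1.33% to 5.52% of the sum in the other 11 libraries and 12.5% in the FT 1 week library, and ranked 8 in the NI mean and 4 in FT 1 week. Gbp1 gave 0.275% to 2.33% elsewhere and 3.76% in FT 1 week. Gm12250 gave 3.2% to 11.7% elsewhere and 16% in FT 1 week. Irgm1 gave 10.04% to 21.4% elsewhere and 9.06% in the FT 1 week library, and Gbp7 gave 10.4% to 27.0% elsewhere and 9.13% in FT 1 week. Gbp3 gave 7.45% to 10.8% elsewhere and 4.68% in FT 1 week. The length of Gm12250 used here (1274 bases) is that of a pseudogene model, so its own share depends on that model, and the shares of the others depend on it through the sum.

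The differences of the FT 1 week library from the other groups are given as a description, since its values probably prompted the choice of members. The median log2 difference of the members was 4.56 against NI and 4.12 against HS 1 week, and -4.30 for FT 2 weeks against FT 1 week, whereas the median of all tested genes lay between -0.02 and -0.01. A gene is said to be called where its Benjamini-Hochberg adjusted p was under 0.05 and its change at least 2-fold by limma-trend. In the comparisons with FT 1 week the choice of members probably fixed their calls, and nothing is read from them. For the record, 10 of 10 members were called against NI (higher, beside 0.372% of the 16388 tested genes), 10 of 10 against HS 1 week (higher, beside 0.287%) and 10 of 10 for FT 2 weeks against FT 1 week (lower, beside 0.281%). With only the groups compared in the model, the counts were 0, 0 and 10 of 10. Leaving out 1 replicated library at a time cannot check these counts, since the FT 1 week library behind them always stays in.

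The first replicated question was whether HS changed the members 1 week after injury. Irgm1 was 2.90 times the NI mean (54.0 ± 6.48 against 18.6 ± 1.99, SD, n = 3 each), Iigp1 2.63 times, Igtp 1.97 times and Gbp3 1.80 times. For these 4 members no HS library overlapped NI, beside 7.31% of all genes. By limma-trend 0 of 10 members were called, beside 0.0061% of genes called higher. On the log2(normalized count + 1) scale, which understates the change of low genes, the difference was 1.49 ± 0.31 (SE) for Irgm1 with an adjusted p of 0.275 by limma-trend, 1.28 ± 0.41 for Iigp1 (adjusted p = 0.528), 0.92 ± 0.36 for Igtp (adjusted p = 0.610) and 0.80 ± 0.29 for Gbp3 (adjusted p = 0.599). At an unadjusted p under 0.05, 5 of 10 members passed in limma-trend, namely these 4 and Gbp7, beside 7.66% of all genes. The median difference of the 10 members was 0.72, beside -0.03 for all genes.

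Of the other tests, on reads recovered from the normalized counts, edgeR's quasi-likelihood test called 0 of 10 members, whereas its likelihood ratio test and DESeq2 each called 1 of 10, which was Irgm1. Its adjusted p was 0.244 in the quasi-likelihood test, 0.00976 in the likelihood ratio test of edgeR and 0.00485 in DESeq2. These tests called 0.0061%, 0.433% and 0.513% of genes in either direction. With array quality weights in limma, 4 of 10 members were called higher, beside 2.26% of genes. The microglia markers summed to 3420, 926.8 and 12880 in HS 1 week replicates 1 to 3, where Irgm1 was at 46.9, 55.6 and 59.6, and their part in the result was not tested.

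At HS 2 weeks the libraries of Iigp1, Gbp1 and Gbp4 lay wholly above NI, which is 3 of 10 members beside 12.9% of all genes. Iigp1 was 2.90 times the NI mean (9.73 ± 1.54, n = 2, against 3.36 ± 2.13, n = 3, SD), Gbp1 2.39 times and Gbp4 1.85 times. By limma-trend 0 of 10 members were called, beside 0.0122% of genes called higher. Both edgeR tests (quasi-likelihood and likelihood ratio) and DESeq2 also called 0 of 10 members, beside 0.0122%, 0.488% and 0.69% of genes in either direction. The log2 difference was 1.40 ± 0.46 (SE) for Iigp1 with an adjusted p of 0.551 by limma-trend, 0.69 ± 0.32 for Gbp1 (adjusted p = 0.668) and 0.64 ± 0.45 for Gbp4 (adjusted p = 0.808). At an unadjusted p under 0.05, 1 of 10 passed in limma-trend (Iigp1), beside 7.49% of all genes. The median of the members was 0.46, beside -0.02 for all genes.

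The HS 2 weeks libraries differed from each other for several members. Irgm1 was 51.7 in replicate 1 and 18.7 in replicate 2, and Igtp was 26.7 and 13.7. The summed microglia markers were 12450 and 2068 in the same libraries, and the summed type I interferon targets were 553.3 and 182.7. Their part in the result was not tested. For Irgm2, Gbp7 and Iigp1 the 2 libraries were closer together.

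At FT 2 weeks the members had much lower values than in FT 1 week. Among them, only Irgm1 lay wholly above NI, which is 1 of 10 members beside 6.92% of all genes, at 1.74 times the NI mean (32.4 ± 4.69 against 18.6 ± 1.99, SD, n = 3 each). By limma-trend 0 of 10 members were called, beside 0.0305% of genes called higher. Both edgeR tests and DESeq2 also called 0 of 10 members, beside 0.0244%, 1.71% and 2.03% of genes in either direction. The log2 difference was 0.76 ± 0.31 (SE) for Irgm1 with an adjusted p of 0.428 by limma-trend, and 1.17 ± 0.41 for Iigp1 (adjusted p = 0.390). These 2 were the members with an unadjusted p under 0.05 in limma-trend, 2 of 10 beside 10.8% of all genes. With array quality weights, 2 of 10 were called higher (Gbp7 and Iigp1), beside 2.9% of genes. The median of the members was 0.35, beside -0.01 for all genes.

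**Figure D3:**
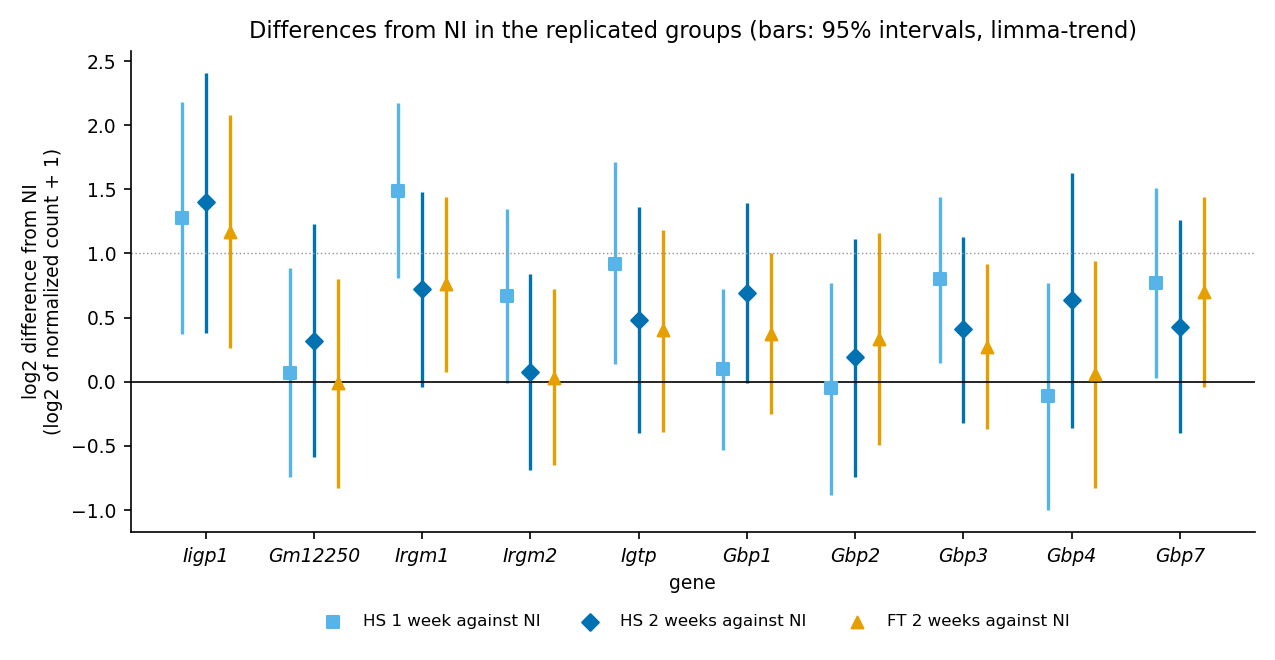
Difference from NI on the log2(normalized count + 1) scale for each member in the 3 replicated injury groups. Points are the limma-trend estimates, bars are 95% intervals not corrected for the number of genes, and the dotted line marks a 2-fold change. Iigp1 and Irgm1 have the highest estimates at HS 1 week, at 1.28 and 1.49, and most intervals of the other genes include 0.

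Severity and time were compared in the groups that had replicates. FT against HS at 2 weeks had log2 differences of -0.58 to 0.27 over the 10 members, with adjusted p-values of 0.961 to 0.990 by limma-trend. The 95% intervals reached from -1.57 (Gbp4) to 1.10 (Gbp7), and the interval of Gbp3 was -0.86 to 0.59. Gbp4 was the 1 member whose groups did not overlap (lower in FT, beside 10.1% of all genes), with a log2 difference of -0.58 ± 0.45 (SE). HS at 2 weeks against 1 week had log2 differences of -0.77 (Irgm1) to 0.75 (Gbp4), with intervals reaching from -1.53 to 1.74. Gbp1 was wholly higher at 2 weeks (0.59 ± 0.32, SE, beside 5.76% of all genes) and Irgm2 wholly lower (-0.59 ± 0.35, SE, beside 6.72%). In both comparisons 0 of 10 members and 0% of genes were called by limma-trend, and 0 of 10 members by the edgeR tests and DESeq2, which called 0% of genes except for 0.0061% by the likelihood ratio test for HS at 2 weeks against 1 week. At an unadjusted p under 0.05, 0 of 10 members passed in limma-trend for FT against HS, beside 2.26% of genes, and 1 of 10 (Irgm1) for HS at 2 weeks against 1 week, beside 1.62%.

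The remaining IRG and GBP genes were looked at beside the members. Of 16 listed, 13 were in the table, and 10 of these were highest in FT 1 week, where their sum was 367.3 beside 32.62 to 84.96 elsewhere. FT 1 week is 1 library, so its values are a description for these genes as well. By limma-trend 0 of 13 were called in any comparison without that library. Gm4951, which is related to Iigp1, was at 105 in FT 1 week and 1.87 to 14.6 elsewhere. Gbp6 was at 60.4 beside 1.02 to 6.55, Tgtp2 at 32.1 beside 0.174 to 2.08, and Gbp5, which promotes inflammasome assembly, at 16.9 beside 0.288 to 3.36. Tgtp1 and Tgtp2 are near-identical copies. Of the 50-base stretches of Gbp6, 70.7% also occurred in another gene, as did 84.1% of those of Gbp10 and 82.9% of those of 9930111J21Rik1. The separate values of these genes are uncertain. Irgq, a family member that interferon is not known to induce, was at 9.13 in FT 1 week and 6.65 to 11.5 elsewhere.

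The upstream genes of the pathway were taken in the order of the signal. Of the interferon ligands listed, Ifnb1 and Ifnk were in the table, at 0 to 5.14 and 0.157 to 1.09 normalized counts over the other 11 libraries and 2.55 and 0.672 in FT 1 week. Ifng was not analysed here. The 7 receptor and kinase genes summed to 608.4 in FT 1 week and 309.5 to 774.4 elsewhere, and 1 of 7 (the kinase gene Jak1, at 140 beside 83.3 to 133) was highest there. For Ifngr1, which encodes a chain of the interferon-gamma receptor, FT 1 week (176) lay inside the range of the others (62.6 to 317).

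Of the 7 transcription factor genes, 6 were highest in FT 1 week. Irf1, which binds the ISRE and is itself induced by interferon-gamma, was at 180 there and 15.7 to 95.9 elsewhere. Irf7, a factor of the type I response, was at 183 beside 11.6 to 99.1. Stat2 and Irf9, which bind the ISRE in 1 complex, were at 107 beside 22.4 to 55.6 and at 94.95 beside 28.6 to 72.7. Irf8, a gene of myeloid cells, was at 143 and lay inside the range of the others (7.20 to 220). Among the inhibitors, Usp18 was highest in FT 1 week (140 beside 9.72 to 118), whereas Socs3 (57.1 beside 12.1 to 96.8) was not.

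Other targets of interferon-gamma summed to 1623 in FT 1 week and 306.9 to 732.6 elsewhere, and 12 of 15 were highest there. FT 1 week is 1 library, so these values are a description, and examples among the 12 are given. They were Cxcl9, a chemokine (82.9 beside 0.0868 to 3.85), Zbp1, a nucleic acid sensor (58.6 beside 0.95 to 9.68), Tap1, a peptide transporter of antigen presentation (181 beside 9.79 to 33.6), and Nlrc5, which drives class I genes (49.3 beside 6.05 to 21.9). Targets of type I interferon summed to 1070 in FT 1 week and 147.6 to 553.3 elsewhere, and 12 of 16 were highest there. Examples among these 12 were Oasl2 (118.2 beside 9.256 to 46.06), Rtp4 (105.6 beside 11.55 to 45.37) and Xaf1 (135.4 beside 28.76 to 72.13), again in 1 library.

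At HS 1 week, which had replicates, both target lists were set beside the members. The type I target genes summed to 436.8, 447.5 and 510.8 in HS 1 week and 179.9, 147.6 and 157.6 in NI, and their median log2 difference was 1.38, beside 0.72 for the members, 0.37 for the interferon-gamma targets and -0.03 for all genes. By limma-trend 0 of 16 type I targets were called at HS 1 week, beside 0.0061% of genes called higher. In the same test 13 of 16 had an unadjusted p under 0.05 (beside 7.66% of all genes). The edgeR likelihood ratio test called 5 of 16, beside 0.433% of genes in either direction, and DESeq2 called 6 of 16, beside 0.513%. Of the interferon-gamma targets, 0 of 15 were called by limma-trend and 3 of 15 had an unadjusted p under 0.05. The likelihood ratio test and DESeq2 each called 1 of 15 (Cxcl10), beside the same shares of all genes. The differences between lists were not tested, and the list of a gene such as Cxcl10 does not show which interferon acted on it here.

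The genes that work downstream with IRG and GBP proteins were also listed. The 10 autophagy genes that help to place them on membranes, such as Atg5 and Gabarapl2, summed to 1891 in FT 1 week and 1241 to 2211 elsewhere, and 3 of 10 were highest there. The 8 inflammasome genes, such as Casp4 and Gsdmd, summed to 329.8 beside 128 to 427.5, and 3 of 8 were highest there. By limma-trend 0 of 10 and 0 of 8 were called in any comparison.

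**Figure D4:**
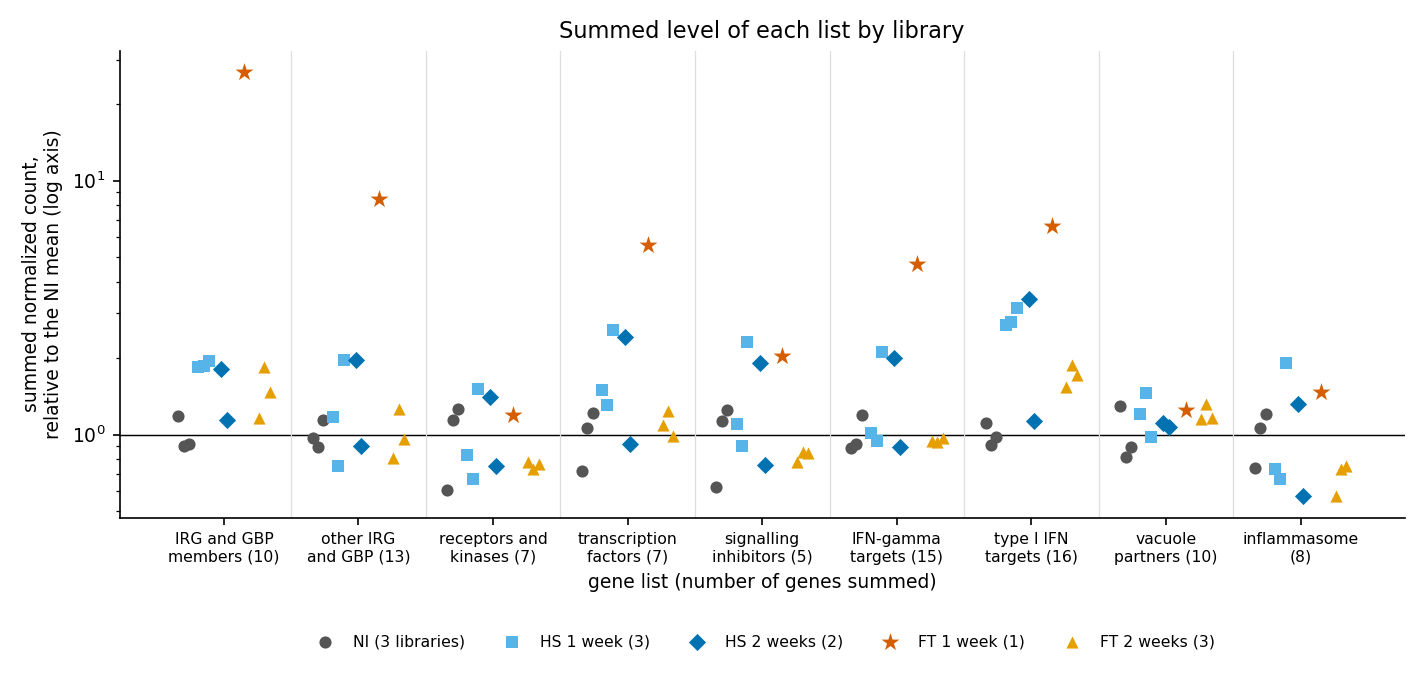
Summed normalized count of 9 gene lists in each library, the ligands not among them, divided by the mean of the 3 NI libraries (log axis), with 1 point per library. The FT 1 week library (star) is highest for the members, the other IRG and GBP genes, the transcription factors and both target lists, and lies within the range of the others for the remaining 4 of these lists.

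Cell type markers were set beside the members. Summed microglia and macrophage markers were 9465 in FT 1 week, which lay below HS 1 week replicate 3 (12880) and HS 2 weeks replicate 1 (12450), and these 2 libraries had summed members of 190.9 and 178.4. Of the 17 markers, 3 were highest in FT 1 week (Aif1, C1qb and C1qc), and none was at 0. The 10 T and NK cell markers in the table summed to 47.41 in FT 1 week and 5.899 to 88.1 elsewhere. The T cell receptor chain gene Cd3e was at 0.940 in FT 1 week, inside the range of the others (0.364 to 1.58), as were the NK cell genes Klrb1c (1.88 beside 0.314 to 4.27) and Nkg7 (2.55 beside 0.22 to 55.8). Of the 10 T and NK cell markers, 3 were highest in FT 1 week. They were the NK receptor gene Klrk1 (22.6 beside 0.347 to 1.66), Gzmb (10.88 beside 0.0712 to 10.15) and Cd8a (1.88 beside 0.364 to 1.465). Endothelial markers summed to 74.94 beside 32.79 to 117, and astrocyte markers to 3960, inside the range of the others (2583 to 14310). The part of other cell types in the result was not tested.

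**Figure D5:**
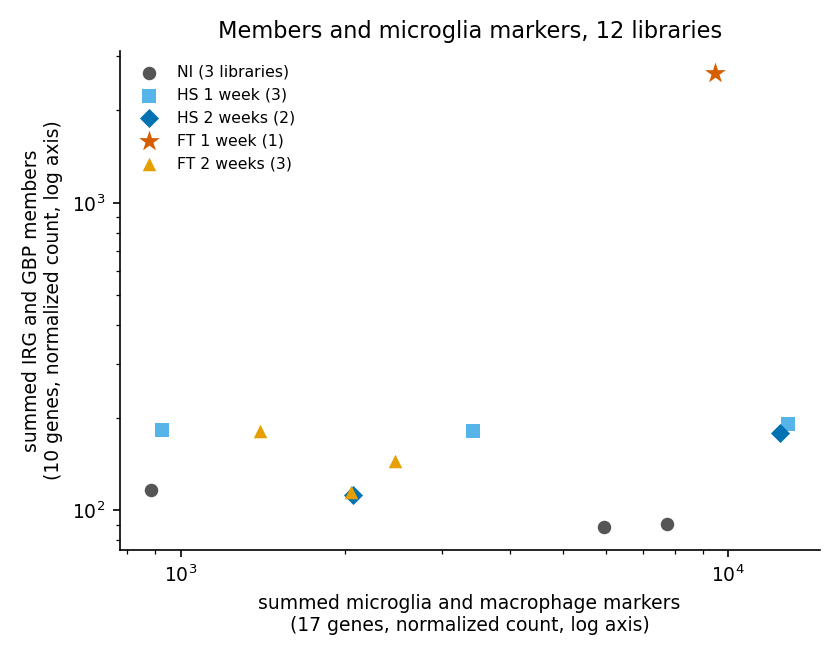
Summed normalized count of the 10 members against that of 17 microglia and macrophage markers (both log axes), with 1 point per library. The FT 1 week library (star) has 2635 for the members at 9465 for the markers, and the 2 libraries with higher marker sums have 178.4 and 190.9.

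Across the 12 libraries the log2(normalized count + 1) values of the members ran together, with a median Pearson r of 0.912 over 45 pairs (0.761 to 0.972). The points share their library and its depth, and 1 library dominates. Without FT 1 week (11 libraries) the median r was 0.339, from -0.406 for Gm12250 and Gbp7 to 0.834 for Igtp and Irgm1. These values are a description.

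The genes outside the family whose values were most like those of the members were ranked by the mean r with the 10 members. Over 12 libraries 9 of the leading 10 were Il18bp (0.930), which encodes a binding protein of interleukin 18, Cxcl9 (0.911), Mrap2 (0.909), Zbp1 (0.882), Tap1 (0.876), Nampt (0.875), Ifi35 (0.852), Ifi47 (0.852) and Cd36 (0.848). Il18bp was at 96.4 in FT 1 week beside at most 9.46 elsewhere, and Mrap2, a melanocortin receptor accessory protein gene, at 53.5 beside at most 2.20. Ifi47 encodes a further GTPase of the IRG family that was not in the lists, and was at 56 beside at most 6.76.

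Over the 11 libraries without FT 1 week, the highest mean r was lower, and 0 of the 10 leading genes were the same. They were Ifi44 (0.598), Isg15 (0.598), Dpp7 (0.587), Ccl5 (0.583), Plin2 (0.573), Herc6 (0.573), Fabp3 (0.570), Cxcl10 (0.560), Eif2ak2 (0.546) and Cfb (0.540). Of these, Ifi44, Isg15, Herc6 and Eif2ak2 are known targets of type I interferon, whereas Cxcl10 was on the list of interferon-gamma targets. The other genes were on neither list. In these 11 libraries 51 of the 11273 genes compared had a mean r over 0.5, and the median over all of them was 0.011. The points share library, depth and cell make-up here as well.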

How the data were processed

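RNA of eGFP+ cells was sequenced in 12 libraries, grouped by the labels. Per the submitters' processing notes and the study's methods, the authors used TopHat2 2.0.9 for alignment (mm10, GRCm38), HTSeq 0.5.4p3 for gene counting and edgeR 3.3.6 for normalization, and removed genes with low counts. The deposited signal values are normalized counts, in which the authors scaled the gene counts of each library by 1 factor. This factor was recovered, and 100% of values were whole reads within 1e-06 (8270643 to 15562378 reads per library).

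Log2(normalized count + 1) was fitted with limma-trend (limma 3.58.1, R 4.3.3) over all 5 groups together, for the 16388 genes whose mean reached 0.5 in 1 group or more. The spread of FT 1 week is assumed to be that of the other groups. The p-values were adjusted by the Benjamini-Hochberg procedure over all genes tested, and a called gene also changed at least 2-fold. Alternatives were the pseudocounts 0.25 and 4, filters at 0 and at 5, median ratio rescaling, only the compared groups, array quality weights, a replicate block, each replicate left out, the model without FT 1 week, the adjusted p alone, and edgeR 4.0.16 (quasi-likelihood and likelihood ratio tests, TMM) and DESeq2 1.42.0 on the recovered reads. Rescaling to the same read total was added after seeing the data. The code of the fit was run on simulated counts, with changes placed in the replicated FT 2 weeks group and the same spread setting for every gene. That run does not cover the FT 1 week library or the uneven spread of these libraries.

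The members and gene lists were chosen with earlier results of these data known. The rule for named genes took all members, the genes of the family, ligand, receptor, transcription factor and inhibitor lists, called genes and the most expressed genes of the other lists, and the 10 genes with the highest mean r with the members among those with a mean of at least 5. Not every gene under the rule is described. The values of 1 gene under the rule are not reported here. Klrk1, Gzmb, Cd8a, Klrb1c, Nkg7, Cd3e, Aif1, C1qb, C1qc, Cxcl10 and the examples of the downstream lists were named after their values were seen. Lengths and positions are from GENCODE on GRCm38, and promoters from RefSeq on GRCm38.p6.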

Additional observations from a re-analysis of the deposited data

How the results depend on the processing

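Calls of the members depended on the test only in some comparisons. For FT 1 week against NI and against HS 1 week, the count fell from 10 to 0 and 0 with only the groups compared in the model, whereas FT 2 weeks against FT 1 week kept 10 of 10. For HS 1 week against NI, it rose from 0 to 4 with array quality weights (Irgm1, Iigp1, Gbp3 and Gbp7), and to 1 (Irgm1) in the likelihood ratio test of edgeR and in DESeq2. For FT 2 weeks against NI, array quality weights gave 2. The cause was not tested. All other settings kept each count within 1.5 times. Leaving out 1 replicated library at a time gave 0 to 0 in the 5 comparisons without FT 1 week. For the comparisons with FT 1 week such runs are no check, since the 1 library behind the calls cannot be left out.

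With the replicate number as a block, and without FT 1 week, which has no number, 0 members were called in each of the 5 comparisons that remain. The deviations of same-numbered libraries correlated from -0.478 to 0.718 over the pairs of groups. In groups of 2 or 3 libraries the deviations from the group mean depend on each other. These values therefore cannot settle whether the numbers pair the libraries. The log2 differences given for single members in the replicated comparisons kept their sign in every alternative run for them, although that of Irgm1 for HS at 2 weeks against 1 week was -1.48 without HS 2 weeks replicate 1 and -0.05 without replicate 2. Irgm1 at HS 1 week ranged from 1.35 to 1.58 (adjusted p from 0.00485 to 0.653 by limma, edgeR or DESeq2). The 10 members stayed highest in FT 1 week after both rescalings. FT 1 week has no replicate, and low counts limit Gbp1 and Gbp4 most.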
